A study of Homo sapiens with 12 samples.

Results

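KIAA1217, KIF1B, SH3BP2, LGALS8 and HSPA12A are 5 genes of the 58676 in the deposited expression table. They were chosen on measured values, because they rose with the proteasome inhibitor bortezomib in a control line and little in 2 NFE2L1 knockout lines. All 5 passed the filter on low values (a mean FPKM of at least 1, where FPKM is fragments scaled by gene length and by assigned reads), as did 12194 genes in all. RNA was sequenced from A549 cells, a line established from a human lung carcinoma. The 3 lines were a control line (genotype label Control1) and the lines NFE2L1 KO1 and NFE2L1 KO2. Each line was given DMSO vehicle or 200 nM bortezomib for 4 h, which made 6 groups of 2 libraries. The labels do not say how the knockout was made, whether a line is 1 clone, or whether the 2 libraries of a group came from separate cultures, so p-values measure only the spread between these libraries.

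The proteasome degrades ubiquitin-tagged proteins, and bortezomib blocks its chymotrypsin-like site. NFE2L1 encodes a membrane-bound transcription factor that is processed and enters the nucleus when the proteasome is impaired, where it acts with small MAF proteins on antioxidant response elements, for example those of proteasome subunit genes. The 5 genes are not subunits of the proteasome. KIF1B encodes a kinesin-3 motor that moves mitochondria and vesicles along microtubules. KIAA1217, also called sickle tail homolog, encodes a large coiled-coil protein needed for normal intervertebral discs in mice. SH3BP2 encodes an adaptor that binds the SH3 domain of ABL1 and is mutated in cherubism. LGALS8 encodes galectin-8, which binds glycans exposed on damaged vesicles and recruits the autophagy receptor CALCOCO2. HSPA12A encodes a distant member of the HSP70 chaperone superfamily with an atypical ATPase domain.

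The promoter of a gene is where such factors can bind, so the 250 bases before each annotated start were searched on both strands. RefSeq (GRCh38.p14) gave 16 windows for the 5 genes, with at least 1 for each of the 5. The motifs were the antioxidant response element core TGACNNNGC, the heat shock element GAANNTTC and the ATF4 element TGATGNAA. The first was in 3 of the 16 windows, against 10.9% of 35114 windows of the same length. Those with a match were 65.2% and 68.4% (SH3BP2) and 82.4% (HSPA12A) G or C. The median over all windows was 58%, and the 10.9% was not matched for this content, so the shares are not like for like. The heat shock element was in 0 of the 16 (5.78% of all windows) and the ATF4 element in 0 (3.14%). A match is a description of letters and not a site. These 3 windows are shown because they hold a match in HSPA12A and in SH3BP2, and none in KIAA1217, which had the lowest response in the KO lines relative to the control line among the 5. Capitals mark the antioxidant response element core, and each window is written 5′ to 3′ on the strand of its gene.
HSPA12A, chr10:116742567-116742816, minus strand: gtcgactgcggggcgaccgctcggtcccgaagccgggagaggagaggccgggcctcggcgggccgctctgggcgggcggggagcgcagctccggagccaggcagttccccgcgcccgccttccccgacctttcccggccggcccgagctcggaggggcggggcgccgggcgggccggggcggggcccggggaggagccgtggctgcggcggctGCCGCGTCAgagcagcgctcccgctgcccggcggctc
SH3BP2, chr4:2817920-2818169, plus strand: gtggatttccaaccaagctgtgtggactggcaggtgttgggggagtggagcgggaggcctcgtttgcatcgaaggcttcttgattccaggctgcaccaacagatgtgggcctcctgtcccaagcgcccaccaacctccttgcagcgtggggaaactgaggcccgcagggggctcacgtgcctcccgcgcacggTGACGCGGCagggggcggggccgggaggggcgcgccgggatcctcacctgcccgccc
KIAA1217, chr10:23694477-23694726, plus strand: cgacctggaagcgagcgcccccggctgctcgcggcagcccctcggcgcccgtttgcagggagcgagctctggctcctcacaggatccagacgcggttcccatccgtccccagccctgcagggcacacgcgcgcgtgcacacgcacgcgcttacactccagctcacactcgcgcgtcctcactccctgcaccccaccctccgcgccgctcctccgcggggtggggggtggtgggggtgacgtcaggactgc
In HSPA12A the match lay 37 to 29 bases before the start and was on the reverse strand. In SH3BP2 it lay 57 to 49 bases before the start. A further SH3BP2 window, at chr4:2812041-2812290, also held a match, farther from its start. The windows of KIF1B and LGALS8 held none of the 3 motifs.

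The libraries held 13211608 to 23819258 assigned reads. The 5 genes had 169 to 3669 reads in a library, and LGALS8 had at least 334. The share of mitochondrial reads was 12.3% to 19.3% where the title ended in R2 (6 libraries), and 5.44% to 6.80% elsewhere. Epithelial markers were present in all 12 libraries (KRT8 126 to 703 FPKM, KRT18 112 to 586, EPCAM 1.25 to 10.6). PTPRC (leukocytes) and PECAM1 (endothelium) had at most 7 reads in a library. COL1A2 (fibroblasts) had more reads, at most 101 in a library and at most 0.408 FPKM, and was above 0 in 9 of the 12 libraries.

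NFE2L1, the knocked-out gene, had 72.7 FPKM (no suffix) and 151 (R2) in the control line in vehicle, and 109 and 189 in bortezomib. KO1 had 8.45 (R1) and 14.8 (R2) in vehicle and 27.0 and 35.8 in bortezomib. KO2 had 18.6 and 33.6 in vehicle and 36.7 and 50.8 in bortezomib. Every KO library was therefore below every control library, and KO1 in vehicle was lowest.

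**Figure D1:**
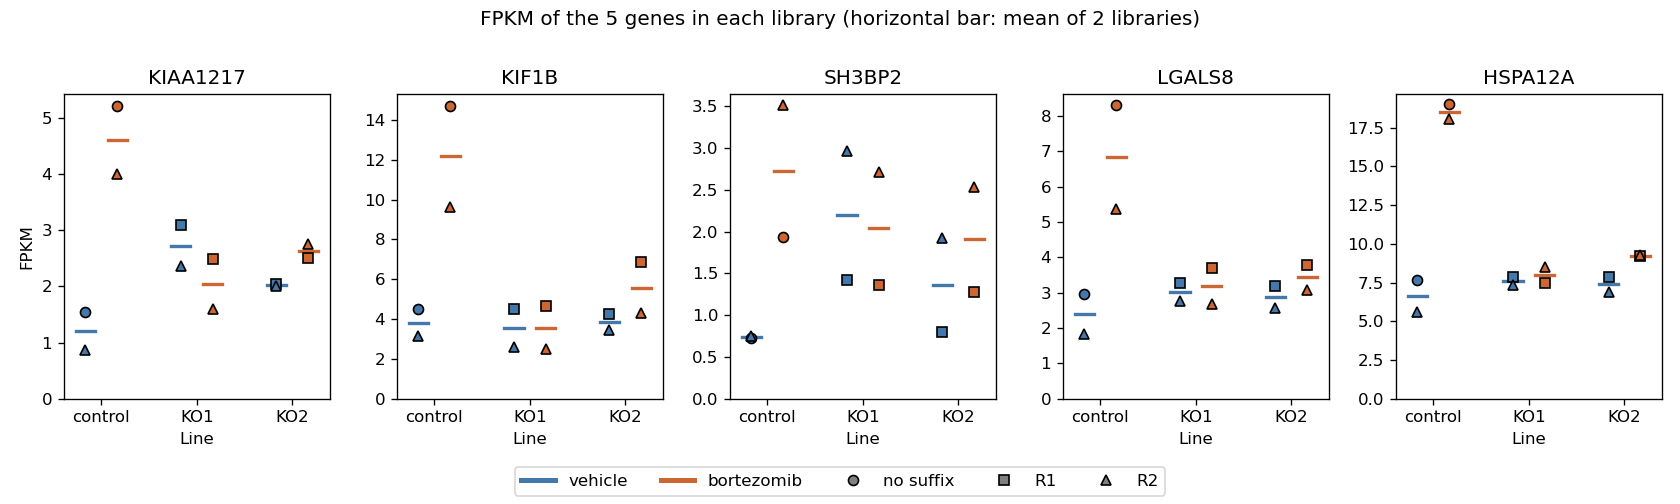
FPKM of the 5 genes (vertical axis, linear, from 0, each panel with its own scale) in the control line, KO1 and KO2; each point is 1 library, colour is treatment, marker shape is the title suffix and the horizontal bar is the mean of 2 libraries. For all 5 genes both bortezomib libraries of the control line lie above both of its vehicle libraries, and in KO1 the treatments overlap for all 5.

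KIF1B (ENSG00000054523, chromosome 1, 10210805 to 10381603, plus strand) had 4.49 FPKM (no suffix) and 3.13 (R2) in the control line in vehicle, and 14.7 and 9.63 in bortezomib. In KO1 it had 4.53 (R1) and 2.62 (R2) in vehicle, and 4.65 and 2.51 in bortezomib. In KO2 it had 4.24 and 3.45 in vehicle, and 6.89 and 4.29 in bortezomib. The treatments did not overlap in the control line or in KO2, although in KO2 the lower bortezomib library was only just above the higher vehicle library. Paired by suffix, the ratio of bortezomib to vehicle was 3.28 and 3.07 in control cells, 1.03 and 0.959 in KO1 cells and 1.62 and 1.24 in KO2 cells. Bortezomib in the control line was highest and apart from all other groups (12.2 ± 3.60, SD, n = 2). Bortezomib in KO2 had the next mean (5.59 ± 1.84). It was apart from vehicle in KO2, but its R2 library lay below the higher library of control vehicle, KO1 vehicle and KO1 bortezomib. The means of these 4 lower groups were 3.57 to 3.84.

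KIAA1217 (ENSG00000120549, chromosome 10, 23694746 to 24547848, plus strand) had 1.54 and 0.865 FPKM in the control line in vehicle, and 5.21 and 4.00 in bortezomib. In KO1 it had 3.09 and 2.36 in vehicle, and 2.48 and 1.60 in bortezomib. In KO2 it had 2.04 and 2.01 in vehicle, and 2.51 and 2.75 in bortezomib. The control line was thus at both ends, highest in bortezomib and lowest in vehicle, and all 8 KO libraries lay between. The paired ratio was 3.38 and 4.62 in control cells, 0.802 and 0.680 in KO1 cells and 1.23 and 1.37 in KO2 cells. KO1 in vehicle (2.72 ± 0.519, SD, n = 2) and KO2 in bortezomib (2.63 ± 0.169) overlapped, as did KO1 in bortezomib (2.04 ± 0.619) and KO2 in vehicle (2.02 ± 0.0191). The last of these had libraries above both control vehicle libraries (1.20 ± 0.480).

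SH3BP2 (ENSG00000087266, chromosome 4, 2793023 to 2841098, plus strand) was the lowest of the 5 genes per length, with a mean of 1.83 FPKM over the 12 libraries. It had 0.721 and 0.750 in the control line in vehicle, and 1.94 and 3.51 in bortezomib. In KO1 it had 1.42 and 2.97 in vehicle, and 1.37 and 2.72 in bortezomib. In KO2 it had 0.801 and 1.92 in vehicle, and 1.28 and 2.53 in bortezomib. The R2 library was higher in every group, and the first 5 groups in the order of means overlapped their neighbours. Only the control line in vehicle (0.736 ± 0.0205, SD, n = 2) lay apart, below all others. The paired ratio was 2.69 and 4.68 in control cells, 0.959 and 0.916 in KO1 cells and 1.60 and 1.32 in KO2 cells.

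LGALS8 (ENSG00000116977, chromosome 1, 236518000 to 236552981, plus strand) had 2.98 and 1.84 FPKM in the control line in vehicle, and 8.32 and 5.38 in bortezomib. In KO1 it had 3.29 and 2.77 in vehicle, and 3.70 and 2.68 in bortezomib. In KO2 it had 3.18 and 2.58 in vehicle, and 3.79 and 3.09 in bortezomib. Bortezomib in the control line (6.85 ± 2.08, SD, n = 2) stood apart, and the other 5 group means (2.41 to 3.44) each overlapped the next. The paired ratio was 2.79 and 2.92 in control cells, 1.13 and 0.968 in KO1 cells and 1.19 and 1.19 in KO2 cells.

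HSPA12A (ENSG00000165868, chromosome 10, 116671192 to 116742574, minus strand) was the highest of the 5 per length, with a mean of 9.57 FPKM over the 12 libraries. It had 7.69 and 5.60 FPKM in the control line in vehicle, and 19.0 and 18.0 in bortezomib. In KO1 it had 7.86 and 7.35 in vehicle, and 7.46 and 8.48 in bortezomib. In KO2 it had 7.89 and 6.90 in vehicle, and 9.22 and 9.27 in bortezomib. The control line in bortezomib (18.5 ± 0.697, SD, n = 2) was clear of KO2 in bortezomib (9.25 ± 0.0312), which was clear of the rest. The remaining 4 groups (6.64 to 7.97) overlapped. The paired ratio was 2.47 and 3.22 in control cells, 0.949 and 1.15 in KO1 cells and 1.17 and 1.34 in KO2 cells. GENCODE release 29 extends this gene to 116850236, beyond the deposited interval.

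**Figure D2:**
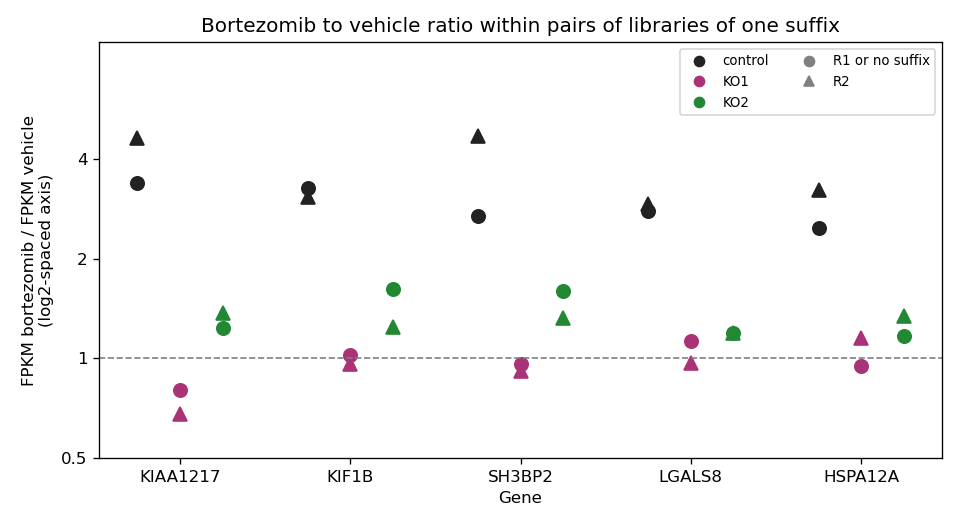
Ratio of FPKM in bortezomib to FPKM in vehicle (log2-spaced vertical axis) for the 5 genes, with 1 point for each pair of libraries of the same suffix; black is the control line, magenta KO1 and green KO2. The control line pairs run from 2.47 to 4.68, the KO2 pairs from 1.17 to 1.62, and the KO1 pairs from 0.680 to 1.15.

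The bortezomib contrasts chose these genes, so their differences are a description with no test. As RNA was measured in bulk, more RNA per cell and more cells with the RNA cannot be told apart. The treatments did not overlap, with bortezomib higher, for 5 of 5 genes in the control line (16.9% of tested genes did so), 0 of 5 in KO1 (12.6%) and 3 of 5 in KO2 (15.8%). On the log2(FPKM + 1) scale the response in the control line was 1.36 for KIAA1217 (SE 0.27), 1.44 for KIF1B (SE 0.37), 1.07 for SH3BP2 (SE 0.39), 1.20 for LGALS8 (SE 0.29) and 1.37 for HSPA12A (SE 0.27). The median of the 5 was 1.36 for control cells, -0.01 for KO1 cells and 0.29 for KO2 cells. Over all tested genes it was -0.01, 0.00 and -0.02. The mean response of the KO lines minus that of the control line, here called the interaction, was -1.37 for KIAA1217, -1.23 for KIF1B, -1.19 for HSPA12A, -1.08 for LGALS8 and -0.95 for SH3BP2. Their ranks from the lowest of the 12194 tested values ran from 37 (KIAA1217) to 151 (SH3BP2). The size of the interaction and the order of the genes depended on the pseudocount. With 0.1 in place of 1 the interaction was -1.92 for KIAA1217, -1.49 for SH3BP2, -1.40 for KIF1B, -1.32 for LGALS8 and -1.29 for HSPA12A, at ranks from 66 (KIAA1217) to 172 (HSPA12A). The control response was then 1.89 for KIAA1217 and 1.70 for SH3BP2. There were 418 tested genes with a control response of at least that of SH3BP2. Of these, 50 (the 5 included) had responses in both KO lines no higher than 0.42, the highest KO value among the 5, which was that of KIF1B in KO2.

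The vehicle libraries that enter these contrasts are also the ones in which the lines can be compared without the drug, so these ratios too are given with no test. In vehicle, with R1 set beside the control library that has no suffix, KIAA1217 was at 2.00 and 2.72 times the control line in KO1, and at 1.32 and 2.32 times in KO2. SH3BP2 was at 1.97 and 3.95 times in KO1, and at 1.11 and 2.56 times in KO2. Both genes therefore had more RNA in every KO vehicle library than in the paired control library. KIF1B was at 1.01 and 0.837 times in KO1 and at 0.944 and 1.10 times in KO2, on either side of the control line. LGALS8 (1.07 to 1.51 times) and HSPA12A (1.02 to 1.31 times) were above it in all 4 pairs. In each pair their ratio was smaller than that of KIAA1217. The choice asked for a rise from control vehicle, which favours low values there, so ratios above 1 are not independent of it. The share of all tested genes with such ratios is not given here. Under bortezomib all 20 ratios of the 5 genes were under 1, which the choice of the genes favours. They ran from 0.261 for KIF1B in KO1 to 0.773 for SH3BP2 in KO1. The 2 KO lines share the control libraries in these ratios.

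The rule set no direction between the levels of KO1 and KO2 within a treatment, so those levels were tested. The same KO libraries entered the choice of the genes, which asked for little response in both lines. The tests in vehicle and in bortezomib are therefore not independent of that choice, and a lack of calls does not show that the lines are alike. There were 10 tests, for 5 genes in 2 comparisons, with p-values adjusted over all 12194 genes in limma. None of the 5 was called between KO1 and KO2 in vehicle (0.0656% of tested genes were) or in bortezomib (0.041%). None had an unadjusted p under 0.05, as 2.35% and 1.98% of tested genes did. The intervals were wide: KIF1B in bortezomib, KO1 minus KO2, had -0.54 (limma 95% interval -1.36 to 0.29) and SH3BP2 in vehicle had 0.44 (-0.44 to 1.32). The responses of both KO lines were part of the choice of the genes, so the response of KO1 minus that of KO2 is given with no test. It was -0.56 for KIAA1217, -0.43 for KIF1B, -0.37 for SH3BP2, -0.23 for HSPA12A and -0.14 for LGALS8, and thus lower in KO1 for each gene. The median over all tested genes was 0.04. Of tested genes, 97.8% had a higher value than KIAA1217, 88.2% than HSPA12A and 79.9% than LGALS8.

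A fit with the replicate suffix as a block narrowed the intervals, and it too called none of the 5 in vehicle or in bortezomib (3% and 1.82% of tested genes). In that fit 1 of the 5 in each comparison had an unadjusted limma p under 0.05, as did 14.5% and 13.3% of tested genes. KIF1B was at -0.54 in KO1 minus KO2 under bortezomib (95% interval -0.87 to -0.21, limma p 0.0051, adjusted p 0.123). SH3BP2 was at 0.44 in vehicle (0.04 to 0.83, limma p 0.0337, adjusted p 0.281). With voom on the recovered reads and the block, KIF1B (-0.67, limma adjusted p 0.0266) and SH3BP2 (0.72, limma adjusted p 0.0412) passed the threshold in these comparisons. That setting called 4.4% of tested genes between the KO lines in bortezomib and 5.81% in vehicle. KIAA1217, LGALS8 and HSPA12A did not pass in either comparison with any of these 3 fits. In bortezomib the blocked intervals of LGALS8 and HSPA12A were -0.37 to 0.20 and -0.52 to 0.13.

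**Figure D3:**
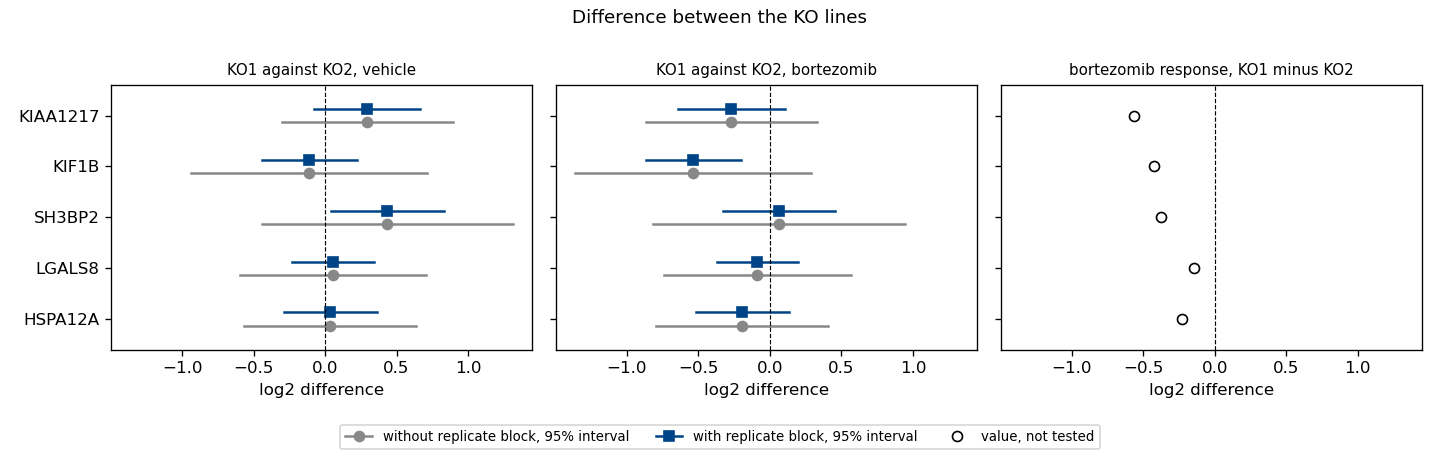
Difference between KO1 and KO2 for the 5 genes on the log2(FPKM + 1) scale in vehicle, in bortezomib and in the response to bortezomib; filled points are limma estimates with 95% intervals, grey without and blue with the replicate block, and open points are responses given with no test. Without the block every interval crosses 0, and with it KIF1B in bortezomib (-0.87 to -0.21) and SH3BP2 in vehicle (0.04 to 0.83) do not.

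The replicate libraries differed in the 5 genes in opposite directions. KIF1B was lower in R2 than in the partner library in 6 of 6 groups, at 0.540 to 0.814 times. LGALS8 was also lower in 6 of 6, at 0.617 to 0.844 times. Of the 12194 tested genes, 44.2% were lower in R2 in all 6 groups. SH3BP2 was higher in R2 in 6 of 6, at 1.04 to 2.40 times, as were 25.2% of tested genes. KIAA1217 was lower in R2 in 5 of 6 groups and HSPA12A in 4 of 6. The share of mitochondrial reads was also higher in R2, and its part in these differences was not tested. The ratios of bortezomib to vehicle given above are within 1 suffix.

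**Figure D4:**
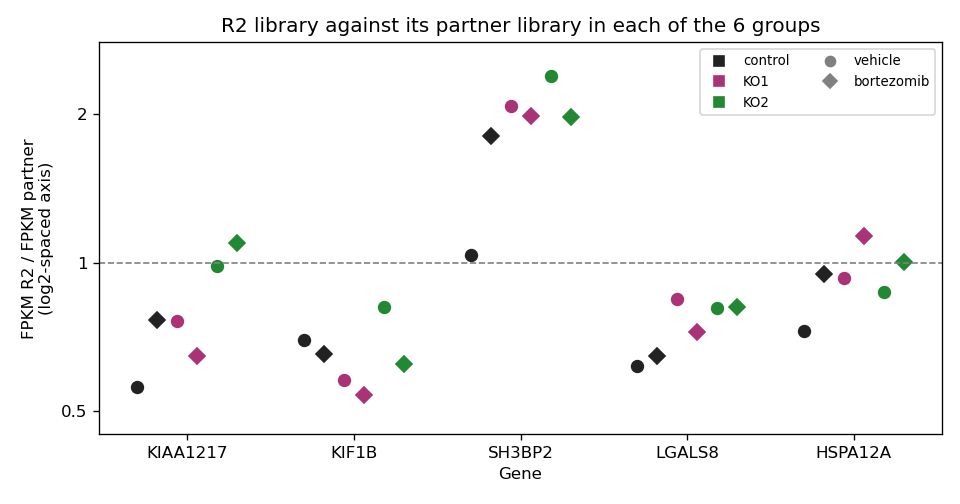
Ratio of FPKM in the R2 library to FPKM in its partner (R1, or no suffix in the control line) on a log2-spaced axis, with 1 point for each of the 6 groups; colour is the line and marker shape the treatment. KIF1B and LGALS8 lie below 1 in all 6 groups and SH3BP2 lies above 1 in all 6.

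Genes that overlap the 5 were examined, because reads of overlapping genes cannot be told apart where the strand setting is not given. SH3BP2 had no overlapping gene in the table. KIAA1217 had 4 and HSPA12A had 1, all with a mean FPKM under 0.1. KIF1B contains RNU6-37P, a small nuclear RNA pseudogene with at most 4 reads in a library. LGALS8 is overlapped on the opposite strand by the last part of HEATR1 (3977 shared bases), a gene for a ribosome biogenesis factor. HEATR1 had 19.2 and 22.1 FPKM in the control line in vehicle and 17.2 and 22.4 in bortezomib, so its treatments overlapped. Its response there was -0.07 (SE 0.31, limma adjusted p 0.979, and 0.725 with the block). The antisense genes RP11-385F5.4 and RP11-385F5.5 had at most 9 and 15 reads in a library, and LGALS8-AS1 had at most 5.

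Relatives and partners of the 5 genes were taken from 10 lists, of which 101 of 129 genes passed the filter on low values. Without the block limma called 0.467% of all tested genes for bortezomib in control cells, 0.238% in KO1 cells and 0.32% in KO2 cells, in either direction. No listed gene was called for the interaction, in limma without the block or with it, where 0% of all tested genes were called too. At an unadjusted p under 0.05 there were 1 (ATF3, 1.42) and 11 of the 101, against 0.943% and 10.7% of all tested genes. With voom on recovered reads and the block 1 of the 101 was called (HSPB1, 1.04, limma adjusted p 0.0291), against 0.927% of all tested genes. The lowest interaction among them was that of CALCOCO2 (-0.47), while the 5 genes lay between -1.37 and -0.95, the values for which they were chosen.

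The HSP70 superfamily, to which HSPA12A belongs, had 15 tested genes besides it. In each line 3 of them rose with bortezomib in limma without the block (0.23%, 0.156% and 0.172% of all tested genes rose in the control line, KO1 and KO2). They were HSPA6, HSPA1B and HSPA1A, stress-inducible chaperones. HSPA1A and HSPA1B are near-identical copies, so the split of reads between them is uncertain. In control cells HSPA1A did not pass without any 1 of the 4 control libraries (limma adjusted p 0.0627 to 0.284), and HSPA1B did not pass without either vehicle library or the bortezomib library with no suffix (0.0692 to 0.136). With the block 9, 11 and 12 of the 15 rose (16.1%, 13.9% and 12.7% of all tested genes rose, and 16.4%, 13.8% and 14.4% fell). The list's median response was 1.02, 0.85 and 0.91. HSPA12B, the closest relative of HSPA12A, had -0.50 (SE 0.24) in control cells, -0.57 in KO1 cells and -0.67 in KO2 cells. Its limma adjusted p was 0.449, 0.49 and 0.36, which the block brought to 0.0784, 0.0563 and 0.0321. Of 15 tested heat shock factor targets outside the HSP70 genes, none was called without the block in any line and 14, 15 and 15 rose with it. Their median was 1.43 in control cells, 1.83 in KO1 cells and 1.77 in KO2 cells, so that this list had no lower median in the KO lines.

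Galectin-8 acts with autophagy receptors and ATG8 proteins at damaged vesicles. Of 14 tested genes of that list none was called without the block. With it 9 rose in control cells, 10 in KO1 cells and 10 in KO2 cells (16.1%, 13.9% and 12.7% of all tested genes rose). TRIM16 fell in the control line (-0.61, limma adjusted p 0.0162 with the block). GABARAPL1, an ATG8 protein, had a response of 2.71 in control cells, 2.22 in KO1 cells and 2.62 in KO2 cells (limma adjusted p 3.29e-05, 7.4e-05 and 3.26e-05 with the block). CALCOCO2 had 1.08, 0.73 and 0.51 (limma adjusted p 0.000903, 0.00668 and 0.0305 with the block), and its interaction did not pass (limma adjusted p 0.383 with the block). In the galectin family list, which also holds LGALS3BP, 4 of 16 genes were tested. LGALS3 had 0.36, 0.35 and 0.26, and did not pass in any line in either fit. LGALS1 had -0.75, -0.21 and -0.17, and was lower in the control line with the block alone (limma adjusted p 0.0339). LGALS3BP, a galectin ligand, fell in KO2 cells (-0.62, limma adjusted p 0.0201 with the block).

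For KIF1B the other kinesin-3 motors and the KIF1-binding protein gave 6 tested genes, and none was called without the block. KIF1C had 0.29 in control cells, 0.62 in KO1 cells and 0.48 in KO2 cells (limma adjusted p 0.274, 0.0402 and 0.0936 with the block). KIF14, a motor of cell division, fell in all 3 lines with the block, from -0.75 in control cells to -1.12 in KO2 cells. KIF1BP, which encodes the KIF1-binding protein, fell in control cells (-0.45) and in KO2 cells (-0.48). For SH3BP2 the list of partners and tankyrase genes had 14 tested genes, of which none was called without the block and 5 rose in each line with it (16.1%, 13.9% and 12.7% of all tested genes rose). ABL2, TNKS and TNKS2 were among the 5 in all 3 lines, joined by ABL1 and PLCG1 in control cells, CBL and RNF146 in KO1 cells, and CBL and VAV2 in KO2 cells. TNKS, a tankyrase that marks SH3BP2 for degradation, had 0.87, 0.50 and 0.46 (limma adjusted p 0.00209, 0.0272 and 0.0384 with the block). SRC fell in the control line (-0.56, limma adjusted p 0.0255 with the block). SH3BP4 and SH3BP5L, which share part of the name of SH3BP2, rose in all 3 lines with the block. The list of cytoskeletal scaffolds around KIAA1217 had 6 tested genes, none of them called in either fit.

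Listed targets of ATF4 and of the antioxidant response element were set beside the 5 genes. NFE2L1 itself acts on the antioxidant response element, but that list holds no proteasome subunit gene. Of 10 ATF4 targets 4, 5 and 5 rose without the block (0.23%, 0.156% and 0.172% of all tested genes rose). With the block 9 rose in each line (16.1%, 13.9% and 12.7% of all tested genes rose). The median was 2.19 in control cells, 2.62 in KO1 cells and 2.55 in KO2 cells. In the control line the 4 were SESN2 (3.51), PPP1R15A (2.82), ATF3 (2.58) and CHAC1 (2.35), and the KO lines added DDIT3. Of these 4, PPP1R15A did not pass without any 1 of the 4 control libraries (limma adjusted p 0.0692 to 0.273). CHAC1 did not pass without the R2 vehicle library or either bortezomib library (0.121 to 0.234). ATF3 did not pass without either control vehicle library, the control bortezomib library with no suffix, or any 1 of the 4 KO2 libraries (0.0528 to 0.271). Of 12 antioxidant response element targets none was called without the block, and 2, 3 and 1 rose with it, where 16.1%, 13.9% and 12.7% of all tested genes rose. OSGIN1 was in each of these (limma adjusted p 0.000558, 0.000671 and 0.00501 with the block), HMOX1 in control and KO1 cells, and GCLM in KO1 cells. The median of the 12 was 0.04, 0.28 and 0.11.

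**Figure D5:**
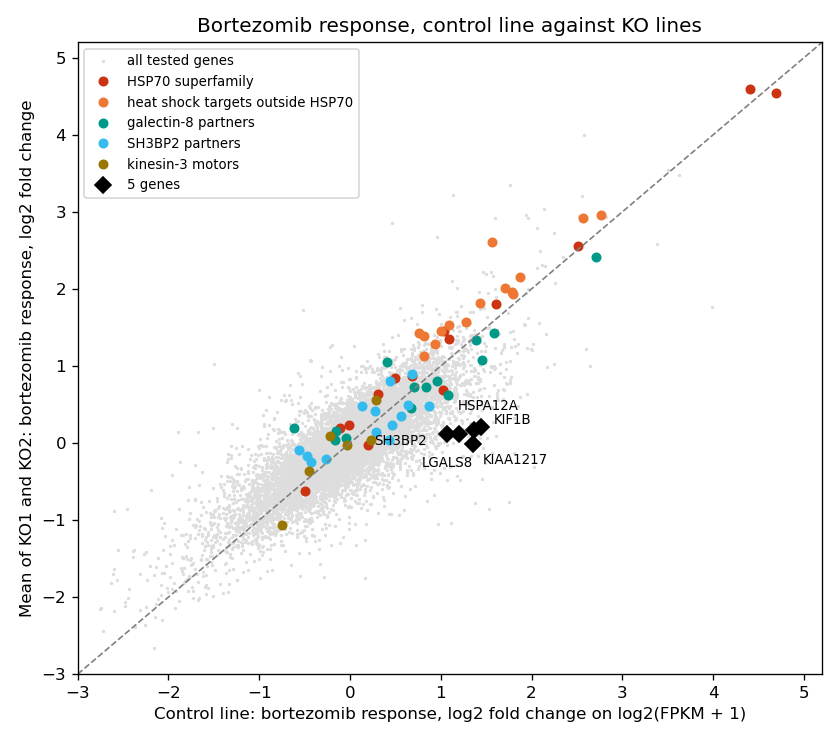
Response to bortezomib in the control line (horizontal) and mean response of KO1 and KO2 (vertical), both as log2 fold changes on log2(FPKM + 1), for all tested genes (grey), 5 lists (colours) and the 5 genes (black diamonds); the dashed line marks equal responses and HSPA6 lies beyond the axes. The 5 genes, chosen for this, lie between 1.07 and 1.44 on the horizontal axis and near 0 on the vertical, while the HSP70 and heat shock genes have KO minus control differences of -0.34 (HSPA13) or higher.

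The profiles most like each gene were found by Pearson's r over the 12 libraries, after the mean of the R2 libraries and the mean of the others were subtracted. These are descriptions with no test, and all points share the same libraries. LGALS8 and HSPA12A were among the 3 most alike genes for each other (r = 0.97). The 3 nearest to KIF1B were EXOC8, an exocyst subunit (0.98), NSUN3, a mitochondrial tRNA methyltransferase (0.98), and LIN54, a subunit of the DREAM complex (0.97). LIN54 had mean FPKM of 2.52 in vehicle and 7.68 in bortezomib in control cells, 2.24 and 3.06 in KO1 cells, and 2.86 and 3.84 in KO2 cells. The other 2 nearest to HSPA12A were UBE2O, a ubiquitin-conjugating enzyme (0.98), and CAMK2G, a calmodulin-dependent kinase (0.98). UBE2O had a mean of 13.9 in vehicle and 34.0 in bortezomib in control cells, 14.2 and 17.1 in KO1 cells, and 14.2 and 17.4 in KO2 cells. For LGALS8 the others were TSC1, an inhibitor of mTORC1 signalling (0.96), and the importin IPO13 (0.96). KIAA1217 had CEP126, a centrosomal protein (0.94), TAF6L (0.92) and RP11-611O2.1 (0.92). SH3BP2 stood apart from KIF1B (r = 0.51) and was nearest to RP11-169F17.1 (0.96), ZNF286A (0.94) and MIR4292 (0.94).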

How the data were processed

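Per the labels' protocols, RNA was extracted with a column kit and copied with random hexamers; the strand setting and counting rules are not given in the sources used here. Per the submitters' processing notes, CASAVA, STAR 2.5, HTSeq 0.6.1, DESeq2 and the build hg19 were named without a role or order. The authors deposited FPKM (fragments scaled by gene length and assigned reads), 1 column per library, with a gene length (in bases) and GRCh38 coordinates for each gene. All 58676 gene IDs were in GENCODE release 29 and 95.2% of positions were the same.

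FPKM multiplied by length gave whole reads (tolerance 0.05 reads) for 100% of values, and these reads gave the depth. limma 3.58.1 (R 4.3.3, eBayes with a trend) was fitted on log2(FPKM + 1), with 1 mean for each of 6 groups, 12 libraries and no replicate term. It tested the 12194 genes whose FPKM averaged 1 or more, and called them at a Benjamini-Hochberg adjusted p-value under 0.05. Fold changes on this scale understate the change of low genes.

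The alternatives were a replicate block by title suffix (R1, R2 or none), a pseudocount of 0.1, no filter, rescaling to a common FPKM sum, voom (limma) on the recovered reads with the block, and leaving out each library. The difference between an R2 library and its partner had r = 0.70 to 0.89 across genes over all 15 pairs of groups (median 0.81), so the suffixes were taken to pair the libraries. The model was also run on simulated reads, with 200 genes changed in bortezomib of the control line. Those reads held no difference between suffixes, so that run does not show how the model handles the difference seen here. The 5 genes were tested only between the KO lines within a treatment; their response in KO1 minus KO2 was planned as a test and is given without one, because the choice of the genes used both responses.

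The 5 genes, the 10 lists and the tests were chosen with earlier results of these data known. The genes named are these 5, NFE2L1, genes overlapping the 5, with a mean FPKM of at least 0.1, the 3 tested genes most like each in profile, up to 4 called genes of each list with the largest response in the control line, and the relatives KIF1C, HSPA12B, LGALS3 and LGALS1; others named from the lists were chosen after their values were seen. Python 3.11.15, numpy 2.4.6 and pandas 2.3.3 read the tables. Promoter sequences are from RefSeq (GRCh38.p14).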

Additional observations from a re-analysis of the deposited data

Results flagged for a closer look

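For KIAA1217 and SH3BP2 both suffix pairs moved up with bortezomib in the control line and in KO2, and down in KO1. The fall of SH3BP2 in KO1 was small beside its spread (ratios 0.959 and 0.916, log2 response -0.06, SE 0.39). It changed sign in 2 of 12 fits without 1 library (-0.42 to 0.29). Those fits had no replicate block, so that range also holds the difference between suffixes. With the block the response was again -0.06, with an SE of 0.17. The log2 response in KO1 minus that in the control line was -1.66 for KIAA1217 and -1.13 for SH3BP2. KO1 minus KO2 was -0.56 for KIAA1217 and -0.37 for SH3BP2. The genes were chosen on the responses of all 3 lines, and these differences were not tested.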

How the results depend on the processing

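The replicate block by title suffix moved the counts of called genes from 57 to 3952 for bortezomib in the control line, 29 to 3378 in KO1, 39 to 3297 in KO2, 8 to 366 for KO1 against KO2 in vehicle and 5 to 222 in bortezomib; the interaction stayed at 0 (1305 genes at an unadjusted limma p under 0.05). With voom and the block they were 4624, 4019, 3950, 709 and 537, and 113 for the interaction, which had 0 in the main model (115 genes at an unadjusted limma p under 0.05). Without a filter they were 124, 64, 96, 42 and 48, with 7 for the interaction and 12 for the response of KO1 minus KO2. Rescaling gave 11 in the control line, 12 in KO1, 24 in KO2 (17 higher, against 21 of 39) and 3 for KO1 against KO2 in bortezomib (0 higher, against 1 of 5). A pseudocount of 0.1 gave 5 and 3 for KO1 against KO2 in vehicle and bortezomib. Leaving out 1 library gave 4 to 30 in the control line, 5 to 26 in KO1, 5 to 34 in KO2, 1 to 9 and 1 to 5 between the KO lines, and 0 for the interaction and for the response of KO1 minus KO2; a group left with 1 library was assumed to vary like the others. The cause of these shifts was not tested. The fits without 1 library had no replicate block. Where a group was left with 1 library, its contrasts set unlike suffixes against each other, so the ranges below also hold the difference between suffixes. Of the KO1 against KO2 levels of the 5 genes, 10 of 120 changed sign without 1 library. The ranges without 1 library were -0.416 to 0.19 for KIF1B in vehicle, -0.26 to 0.39 for SH3BP2 in bortezomib, -0.057 to 0.17 and -0.26 to 0.089 for LGALS8 in vehicle and bortezomib, and -0.048 to 0.12 for HSPA12A in vehicle. Of the responses of KO1 minus KO2, 1 of 60 changed sign (LGALS8, -0.32 to 0.033), and the response of SH3BP2 in KO2 ranged from -0.039 to 0.66. The responses in KO1 ranged across 0 for KIF1B (-0.35 to 0.34), SH3BP2 (-0.42 to 0.29), LGALS8 (-0.13 to 0.23) and HSPA12A (-0.023 to 0.14). HEATR1 in control cells ranged from -0.25 to 0.11. After rescaling, HSPA1A, PPP1R15A, ATF3 and CHAC1 no longer passed (limma adjusted p 0.0632, 0.0635, 0.0656 and 0.063). The 5 genes had at least 169 reads in each library; the part of depth in these results was not tested.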
